A study of Mus musculus with 12 samples.

Results

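The 17 eCLIP peaks described here are all the regions that the authors listed as bound more in the WT TrkB-BAC minigene than in the minigene without Cluster 1 and Cluster 2, with RbFox1 expressed on both sides. They were chosen by membership of that deposited list, which is 17 of the 24855 peaks in the 3 lists of the series. Peaks that start below position 40000 were assigned to Cluster 1 (16 peaks) and peaks that start above position 70000 to Cluster 2 (1 peak). Positions are 1-based on the minigene, which is a custom sequence and not a mouse genome build.

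RbFox1 is an RNA-binding protein that recognises (U)GCAUG in pre-mRNA and regulates which exons are kept. Its binding sites are often intronic, and it acts together with other splicing regulators in the large assembly of splicing regulators (LASR). The minigene carries the part of the mouse *Ntrk2* gene that is alternatively spliced into the truncated receptor TrkB.T1 and the full-length kinase receptor TrkB.FL. Cluster 1 and Cluster 2 are groups of (U)GCAUG motifs deep in the introns before and after the TrkB.T1 exon.

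All cells were T-REx-293, a human embryonic kidney line in which doxycycline (Dox) switches on a knocked-in RbFox1. On the WT side there were 2 immunoprecipitated libraries of the line 77-5, which carries the WT minigene. On the mutant side there were 2 immunoprecipitated libraries of the line 32-1, whose minigene lacks both clusters. Both lines received Dox for 48 h, at 0.5 mg/ml according to the sample labels and at 0.5 μg/ml in the figure legends of the study, and another 2 libraries of 77-5 received none (No Dox). In every line transcription starts from a synthetic CAG promoter, and the minigene ends in a neomycin resistance cassette. Each line is 1 clone, so the deletions cannot be told apart from other differences between 77-5 and 32-1, such as minigene copies or the level of the transcript. The comparison asks whether the deletions change where RbFox1 binds on the minigene.

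Each peak has 1 log2 fold enrichment, the authors' ratio of normalized reads in WT + Dox to those in the deletion line + Dox after merging replicates. No value for a single library and no read count was in the list. The depth is therefore unknown, the spread over the 2 replicates is not known, and no difference between peaks could be set against replicate error or tested. The authors began from WT peaks, so the list could not hold a peak of the deletion line alone. The study assigns these peaks to the stretches it removed, and by its description each deletion is longer than the stretch that the peaks of that cluster cover. A higher value in WT therefore follows from the construct. Each fold is taken over reads placed on sequence that the minigene of 32-1 should lack. By the deposited folds these reads were 0.318% to 7.70% of those in WT + Dox at Cluster 1 and 2.95% at Cluster 2. Their number is unknown, and how the authors treated a count of 0 was not stated. The folds are given as deposited, and neither their size nor their order measures binding that remained in the deletion line. They also do not measure how strongly RbFox1 bound along the clusters in WT, as each depends on the few reads in 32-1. The exact borders of the deletions and the sequence of the minigene were not used here, so (U)GCAUG motifs were not counted.

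All 17 peaks were higher in the WT libraries, which is the direction the list was made for. The log2 fold enrichment ran from 3.70 to 8.30 in Cluster 1 and was 5.08 at Cluster 2. Every peak was listed with a finite value. The −log10 p was 400 at all 17 peaks, which is the highest value in any of the lists, so p gave no order among them.

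In Cluster 1 the 16 peaks covered 514 of 536 nt, from 30802 to 31337, and 12 of the 16 began at the base after the previous peak. Peaks that abut in this way were joined, which gave 4 blocks. The blocks were separated by 3, 2 and 17 nt. The widest peak had 106 nt and the narrowest 12 nt, with a median of 23.5 nt.

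Block 1, the block nearest to the 5′ end, spanned 160 nt from 30802 to 30961 and held 5 peaks. Its first 4 peaks were among the highest of the list. The first 62 nt, from 30802, had a log2 fold enrichment of 7.20, and the next 19 nt, from 30864, had 7.83. The maximum of all 17 peaks, 8.30 or 315-fold, was reached at 30883 to 30906. The next 12 nt, to 30918, stayed near this level with 7.95. At the following base the value fell, and the last peak of the block, at 30919 to 30961, had 5.09 or 34.1-fold. Within 1 block of touching peaks the enrichment thus spanned 3.21 on the log2 scale.

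Block 2 spanned 112 nt from 30965 to 31076 and was the lowest of the 4 blocks by width-weighted mean. Its 4 peaks had log2 fold enrichments of 5.12 (30965 to 30990), 4.72 (30991 to 31011), 3.70 (31012 to 31047) and 4.83 (31048 to 31076). The third of them was the lowest of all 17 peaks, at 13.0-fold. The highest value of block 2, 5.12, was below both values of block 4 and above 1 value each of blocks 1 and 3.

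Together with the last peak of block 1, block 2 made a run of 5 low peaks over 158 nt, from 30919 to 31076, with values from 3.70 to 5.12. The width-weighted mean of these 5 peaks was 4.67, against 7.61 over the first 4 peaks of block 1, a difference of 2.93 on the log2 scale or 7.63-fold. This run was delimited after the values were seen.

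Block 3 spanned 119 nt from 31079 to 31197 and had a single trough. It began at 6.96 (31079 to 31100) and went to 5.96 (31101 to 31115). Its minimum was 4.42, or 21.4-fold, at 31116 to 31156. The value then rose to 7.32 at 31157 to 31174 and ended lower, at 6.45 at 31175 to 31197. Only 1 of the 5 peaks, the minimum, was below the Cluster 2 peak.

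Block 4 held 2 peaks over 123 nt. The first, at 31215 to 31231, stood at 6.04 on the log2 scale. The second, at 31232 to 31337, was the widest of the 17 peaks, and its 8.14 or 283-fold was the second highest value. The 2 highest peaks of the list thus lay toward opposite ends of Cluster 1, with 325 nt between them.

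**Figure D1:**
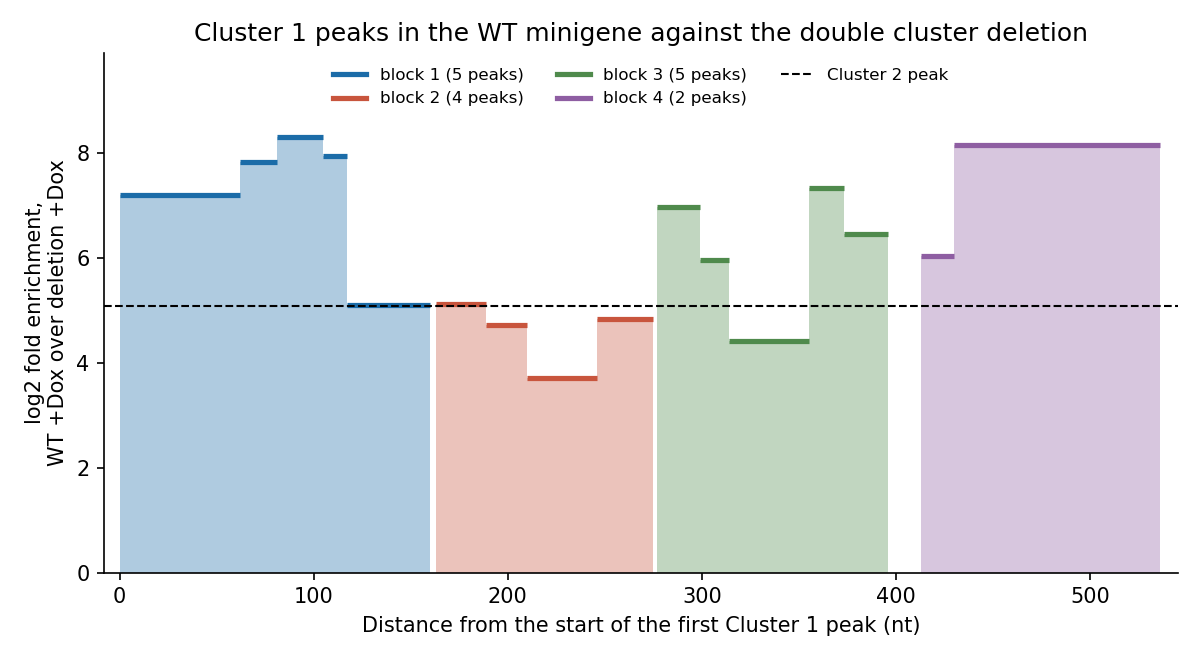
Log2 fold enrichment of WT + Dox over the deletion line + Dox (y axis) along Cluster 1 (x axis, nt from the start of the first peak). Each horizontal line is 1 peak drawn to its width and coloured by block, and the dashed line is the Cluster 2 peak at 5.08. The first 4 peaks and the last reach 7.20 to 8.30, while the 5 peaks from the end of block 1 through block 2 stay between 3.70 and 5.12. There are no error bars because the list has 1 merged value per peak. Heights are ratios to reads in the deletion line and not a profile of binding in WT.

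Counted in bases, 241 of the 514 nt under Cluster 1 peaks (46.9%) had a log2 fold enrichment of at least 7, in 6 peaks. A further 146 nt (28.4%) in 6 peaks had values from 5 to 7, and 127 nt (24.7%) in 4 peaks were below 5. The width-weighted means of blocks 1 to 4 were 6.93, 4.51, 5.91 and 7.85, which is 122-fold, 22.9-fold, 60.3-fold and 231-fold. Block 4 was highest by this mean and block 1 by its single highest peak.

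Cluster 2, in the intron after the TrkB.T1 exon, had its only peak at 76183 to 76233, 44845 nt downstream of the last Cluster 1 base. Its 51 nt exceeded the width of all but 2 of the Cluster 1 peaks. The log2 fold enrichment of 5.08, or 33.9-fold, ranked 13 of 17. Of the Cluster 1 peaks, 12 were higher and 4 were lower, with 387 and 127 nt respectively. The peaks at 30919 and 30965 exceeded it by 0.0095 and 0.038 on the log2 scale.

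The median of the 16 Cluster 1 peaks was 6.24, or 75.8-fold, which is 1.16 above the Cluster 2 peak on the log2 scale or 2.24-fold. With 1 peak at Cluster 2 and no value per library this difference has no test. It depended on which peaks were taken. The 8 narrower Cluster 1 peaks (12 to 23 nt) had a median of 6.70 and the 8 wider ones (24 to 106 nt) a median of 5.11. Against the median of the wider peaks the difference was 0.024, although single wider peaks lay far above and below the Cluster 2 peak. With linear folds averaged over the covered bases it was 1.98. Among the wider peaks were both the highest of the list, 8.30, and the lowest, 3.70.

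A pair of the 17 peaks, 1 in each cluster, also stands with the same borders in the list of WT + Dox against WT No Dox. Both comparisons use the same 2 WT + Dox libraries, so their values are not independent and are set side by side. The Cluster 1 peak, at 31101 to 31115, was enriched by 5.96 (log2) over the deletion line and 3.14 over No Dox. The Cluster 2 peak, at 76183 to 76233, had 5.08 over the deletion line and 3.78 over No Dox. Cluster 1 was thus the higher of both peaks by 0.88 over the deletion line and the lower by 0.63 over No Dox. In No Dox cells, which carry the intact sequence, the normalized reads were 11.3% of those in WT + Dox at the Cluster 1 peak and 7.29% at the Cluster 2 peak. The folds over the deletion line correspond to 1.61% and 2.95%, for sequence that its minigene should lack. The −log10 p of the Cluster 1 peak was 400 in both lists, and that of the Cluster 2 peak was 400 over the deletion line and 39.0 over No Dox.

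**Figure D2:**
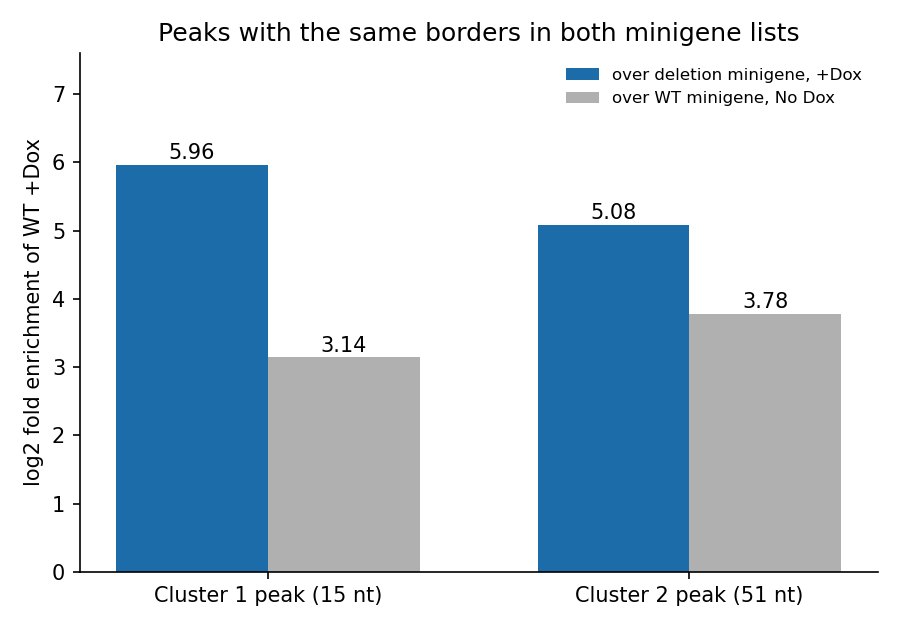
Log2 fold enrichment of WT + Dox (y axis, starting at 0) for the Cluster 1 peak of 15 nt and the Cluster 2 peak of 51 nt, over the deletion line + Dox (blue) and over WT No Dox (grey). The Cluster 1 peak is the higher over the deletion line (5.96 against 5.08) and the lower over No Dox (3.14 against 3.78). Each bar is the authors' merged value and has no error.

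Of the 16 Cluster 1 peaks, 15 had no entry in the list over No Dox, among them all of blocks 1, 2 and 4. The peak that had one was neither the highest nor the lowest of block 3. It ranked 10 of 17 over the deletion line. In the study the minigene clones made RbFox1 only when Dox was given, and the No Dox signal was taken as background. Entries over No Dox began at 3.14 (log2), and peaks left out of a list have no value. Whether reads at these 15 stretches rose when RbFox1 was switched on was therefore not tested. In the other direction, 5 of the 7 minigene peaks over No Dox lie outside the clusters and have no entry over the deletion line, so the list gives no value for them.

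Human transcripts from the same WT cells give a scale for these values, in the list of WT + Dox against No Dox, where the denominator is a different one. Cluster 1 peaks exceeded all 24831 human peaks in 7 of 16 cases, over 263 nt. The highest human log2 fold enrichment was 6.79 and the median 3.68. None of the 17 minigene peaks was below that median, and the lowest, at 31012 to 31047, was above 51.2% of the human peaks. The Cluster 2 peak was above 96.5% of them. Like all 17, 510 of the human peaks had a −log10 p of 400. Sharing this highest value does not make them alike, as the same Cluster 2 peak had 39.0 over No Dox. The 510 human peaks had a median of 4.03 and a maximum of 6.18. Of the Cluster 1 peaks 8 were above all 510, and the Cluster 2 peak was above 84.3%. A stricter threshold, 4 on the log2 scale together with a p no higher than 1e-05, was met by 16 of the 17 peaks (94.1% of their list), against 29.0% of the human peaks and 14.3% of the minigene peaks over No Dox. The 17th was the peak at 31012 to 31047. Every human peak is compared with cells that still contain its sequence, so these shares describe the lists and do not rank binding.

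**Figure D3:**
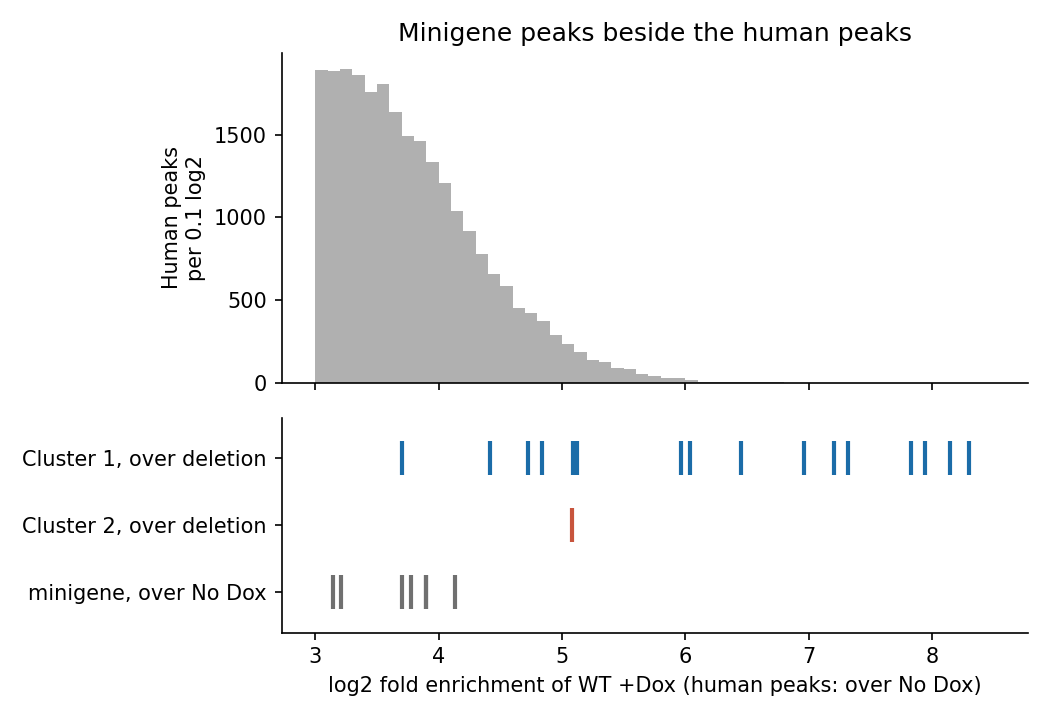
Upper panel, number of human peaks (y axis) in bins of 0.1 of log2 fold enrichment of + Dox over No Dox (x axis). Lower panel, on the same x axis, each tick is 1 minigene peak, with Cluster 1 (16) and Cluster 2 (1) over the deletion line and the 7 minigene peaks over No Dox. The human peaks end at 6.79 and 7 Cluster 1 ticks lie to the right of it.

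The listed values of touching peaks differed more in Cluster 1 than is usual in the human list. Over the 12 abutting pairs the value went up 5 times and down 7 times from 5′ to 3′. The size of the step ran from 0.35 to 2.90 on the log2 scale, with a median of 1.01, and 6 of 12 steps (50%) were at least 1. Among 6068 abutting human pairs the median step was 0.35 and 472 (7.78%) were at least 1. The drop of 2.85 between 30918 and 30919 and the rise of 2.90 between 31156 and 31157 were larger than any human step, of which the largest was 2.49. Where both human peaks had a −log10 p of 400 (202 pairs), the median step was 0.17 and the largest 0.94. Human values stop at 3 on the log2 scale, which bounds the steps that can be seen there. The reads behind each peak, which could be set beside the steps, are unknown. Denominator and peak width (median 23.5 nt in Cluster 1, 82 nt in the human list) also differ between the lists. Whether they account for the difference in steps was not tested.

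**Figure D4:**
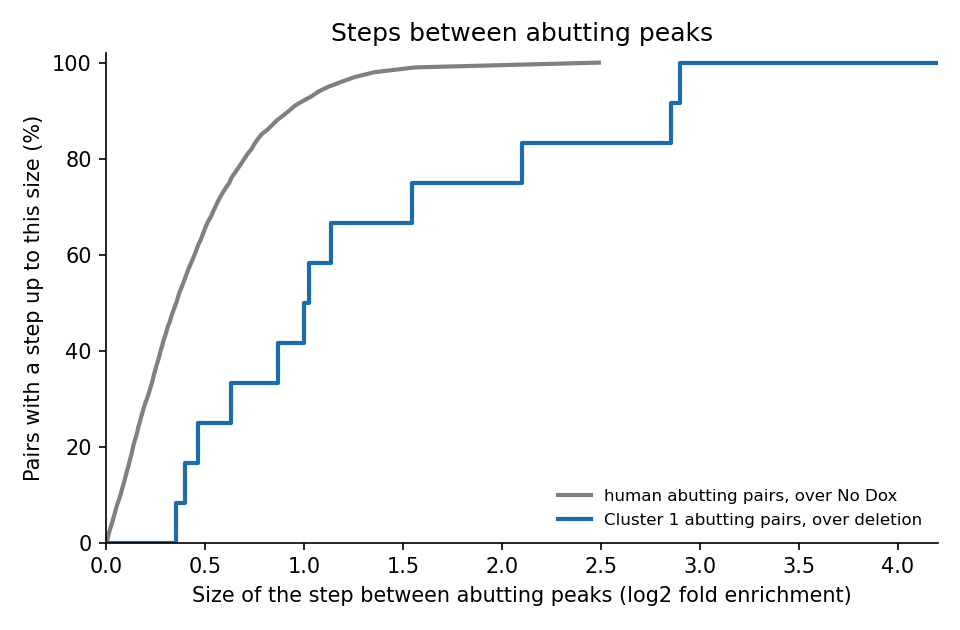
Share of abutting pairs (y axis, %) whose step in log2 fold enrichment is at most the size on the x axis, for the 12 pairs of Cluster 1 over the deletion line (blue) and 6068 human pairs over No Dox (grey). Of the blue steps 50% are at least 1 against 7.78% of the grey ones, and 2 blue steps lie beyond the end of the grey line at 2.49.

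By block the picture was similar. Of the 454 human blocks with at least 4 abutting peaks, whose median range of log2 fold enrichment was 0.88, 1 had a range as wide as the 3.21 of block 1, and 1 had a range as wide as the 2.90 of block 3. The 1.42 of block 2 was matched by 53 of the 454. Block 4, with 2 peaks and a range of 2.10, was matched by 3 of the 2841 human blocks of 2 peaks, whose median range was 0.36. Of the Cluster 1 peaks 75% directly followed another peak, against 24.4% of the human peaks, which were wider with a median of 82 nt. These shares set 1 dense stretch of 536 nt against peaks spread over the human genome. The 454 human blocks above show that such runs were not particular to Cluster 1. These are descriptions of lists made with different denominators, and no test of their difference was run.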

How the data were processed

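Single-end eCLIP libraries were immunoprecipitated with an antibody against RbFox1. Per the submitters' notes and the paper's methods, the authors removed molecular identifiers with UMI-tools, mapped non-repeat reads with STAR to hg38 and the minigene, removed duplicates and called peaks with CLIPper. The deposited lists give, for each peak merged over replicates, a −log10 p-value (by the authors, from Fisher's exact test or a chi-square test with Yates' correction) and a log2 fold enrichment of reads normalized to the library total, by the authors. The names of the lists carry IDR (irreproducible discovery rate), and its settings were not given in the sources used here. These deposited values come from the authors' own comparison and were described without a new test. The 6 input libraries have no condition in the labels and entered no comparison.

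Python 3.11.15 with pandas 2.3.3 and numpy 2.4.6 was used. Starts were converted to count from 1, and same-strand peaks with 0 nt between them were joined. Joining at 0 nt was tested on simulated blocks that lay further apart than those of Cluster 1. Gaps as small as those in Cluster 1, and the joining of larger gaps, were not simulated. Every peak of the list was named. Members, lists and alternatives were chosen with earlier results of these data known.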

Additional observations from a re-analysis of the deposited data

How the results depend on the processing

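No paired analysis was possible because the list holds 1 merged value per peak, which also kept single replicates from being left out. The number of peaks was 17 as deposited and 16 at the stricter threshold, and joining abutting peaks left 5 regions. Blocks numbered 5 with 0 nt between peaks, 3 when gaps of at most 5 nt were joined and 2 at 25 nt, which are then the 2 clusters. The Cluster 1 median of 6.24 became 6.42 as the median over blocks, 6.39 as the width-weighted mean, 7.06 as log2 of the width-weighted mean of linear folds and 6.45 at the stricter threshold. In the same order, Cluster 1 minus Cluster 2, 1.16 in the report, was 1.34, 1.31, 1.98 and 1.37. It was 0.024 with Cluster 1 peaks at least as wide as their median, so its sign stayed positive under these 5 alternatives while its size did not. Shared peaks numbered 2 with at least 1 nt of overlap, with at least 50% of the shorter peak and with identical borders. The comparisons with human peaks at a −log10 p of 400 were added after seeing the data. Unknown depth limits all of these values.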
